A study of Arabidopsis thaliana with 12 samples.

Results

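BZIP17 (AT2G40950), BZIP28 (AT3G10800) and BZIP60 (AT1G42990) encode the bZIP transcription factors that carry stress signals from the endoplasmic reticulum (ER) to the nucleus in Arabidopsis. These 3 genes were chosen by name, each with 1 probe set (245092_at, 258759_at and 259626_at), out of 13355 genes that the platform annotation pairs with a probe set of their own. Their RNA was measured on 12 Affymetrix arrays of the aerial part of Arabidopsis thaliana seedlings (ecotype Columbia) aged 10 days, all of genotype CCA1-ox, which overexpresses the clock MYB factor CCA1. The published line carries CCA1 under a constitutive viral promoter, though the labels do not name it. Plants grew on agar with 1% sucrose in cycles of 16 h of light and 8 h of dark. Each of 4 times of day had 3 arrays: ZT0, the moment of lights on, ZT6 and ZT12 in the light, and ZT18 in the dark, where ZT counts hours from lights on. Wild-type seedlings are not analysed here, so the part of CCA1 overexpression in the values below cannot be told apart.

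Proteins that fold badly in the ER set off the unfolded protein response, which raises the output of chaperones, folding enzymes and degradation factors. BZIP17 and BZIP28 sit in the ER membrane, travel to the Golgi under stress, and are cut there by the site-1 protease S1P and then by the site-2 protease, which frees the part that enters the nucleus. BZIP60 is switched on differently: the ER kinase and ribonuclease IRE1 splices its mRNA, and the protein made from the spliced form has lost its membrane anchor. BZIP28 and BZIP60 are best known for inducing ER chaperone genes, and BZIP17 also acts in salt stress and in root growth. The arrays measured RNA levels. Splicing of BZIP60 mRNA and cutting of the BZIP17 and BZIP28 proteins were not measured.

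Values are log2 expression as deposited, where a step of 1 is a doubling of the signal. They are means ± SD of 3 arrays per time, differences are given with the standard error (SE) of a limma fit to all 12 arrays, and adjusted p-values are Benjamini-Hochberg values over the 14016 probe sets tested, with a threshold of 0.05. All 3 bZIP genes passed the filter on low values, lay far above the shared floor of 2.06 on every array, and exceeded the detection limit of 4 used here. Of 5 leaf-expressed genes with a named probe set, LHCB4.1, LHCB4.2, SBPASE and CHLI2 averaged at least 11.32 at each time, and LHCB4.3 was lower, at 5.64 to 7.41. Of 2 root genes, EXPA7 was at the floor on all 12 arrays, and PYK10 had a level of 12.74 to 13.33. These markers moved with time as well: all 5 leaf genes were higher at ZT6 than at ZT0 (log2 differences 0.21 to 1.77), and PYK10 was lower at ZT0 than at ZT6, ZT12 and ZT18 (by log2 differences of 0.40, 0.59 and 0.45 in size, adjusted p up to 0.0147 by limma). Their part in the ZT0 results of the bZIP genes, and the source of the PYK10 signal, were not tested. The 3' minus 5' signal of the control transcripts, which grows as RNA is shortened, was 4.40 ± 0.27 at ZT18 and had means of 3.70 to 3.81 at the other times. Its part in the ZT18 results was not tested beyond a limma fit with the signal as a covariate. Values of that fit stand beside the calls it ended. The covariate was not used in the tests between pairs of bZIP genes. It is also not given for bZIP genes other than these 3. In these samples of mixed aerial tissue, fewer cells with a transcript and less of it per cell cannot be told apart.

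BZIP17 changed most over the day, BZIP60 changed little and BZIP28 did not pass the test. By the F-test over the 4 times, 2 of the 3 genes passed, against 70.1% of all probe sets tested, so a change over the day is what most transcripts showed. The distance between the highest and lowest time mean was 1.50 for BZIP17, larger than for 84.5% of probe sets, 0.45 for BZIP60 (25.6%) and 0.25 for BZIP28 (8.71%). The median over all probe sets was 0.73. The mean over the 12 arrays was 8.75 for BZIP60, 6.96 for BZIP17 and 6.53 for BZIP28, but signals of different probe sets cannot be ranked as RNA amounts.

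**Figure D1:**
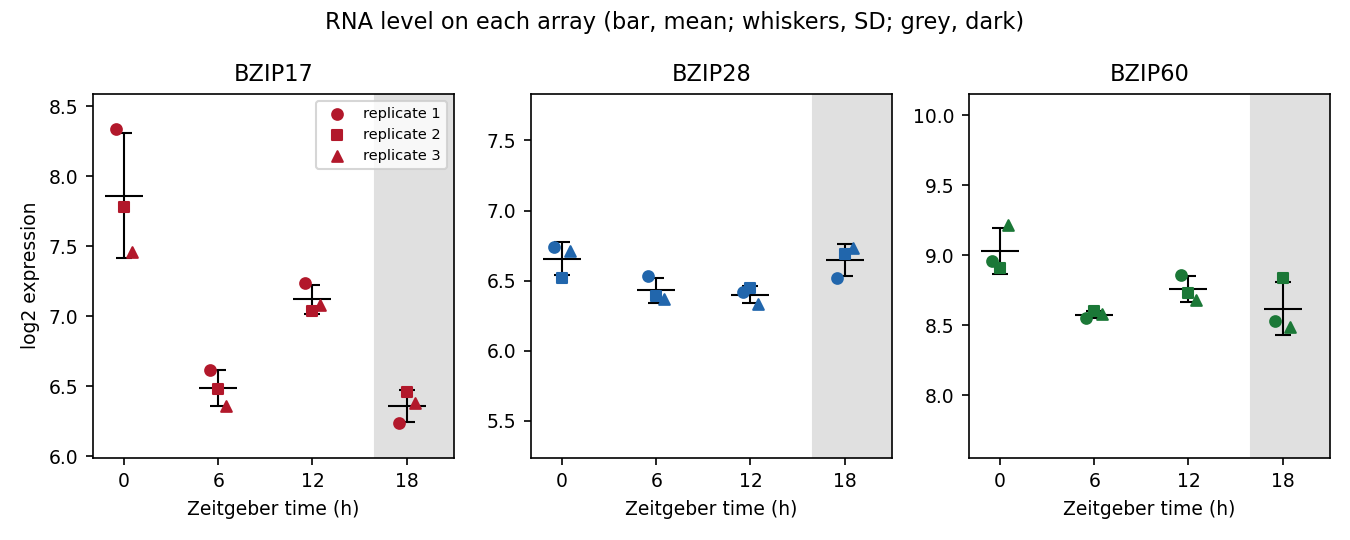
Log2 expression of the 3 bZIP genes on each of 12 arrays against Zeitgeber time in hours; marker shape gives the replicate, the horizontal bar the mean and the whiskers the SD of 3 arrays, and grey marks the dark. The panels span the same height, so the range of 1.50 for BZIP17 can be set against 0.25 for BZIP28 and 0.45 for BZIP60.

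BZIP17, the membrane-bound factor also known from salt stress, was highest at dawn. At ZT0 its 3 arrays read 8.34, 7.78 and 7.46, and at ZT6 they read 6.62, 6.48 and 6.36. At ZT12 they read 7.24, 7.04 and 7.08, and at ZT18 they read 6.24, 6.46 and 6.38. Every ZT0 array therefore stood above every other array, every ZT12 array stood above all ZT6 and ZT18 arrays, and the ZT6 and ZT18 arrays overlapped. The ZT0 arrays also scattered most, with an SD of 0.44 against 0.11 to 0.13 at the other times, whereas the fit uses a single spread for all times.

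BZIP17 RNA fell 2.58-fold over the first 6 h of light, from 7.86 ± 0.44 at ZT0 to 6.49 ± 0.13 at ZT6 (log2 difference -1.37, SE 0.19, adjusted p = 5.61e-05 by limma). It was 7.12 ± 0.11 at ZT12, a log2 difference of 0.63 from ZT6 (SE 0.19) that did not pass (adjusted p = 0.105), although no arrays of these times overlapped. That call depended on the fit: the adjusted p was 0.0341 in a limma fit to the 6 ZT6 and ZT12 arrays and 0.0465 without ZT0 replicate 1. Across lights off it fell 1.69-fold to 6.36 ± 0.11 at ZT18 (log2 difference -0.76, SE 0.19, adjusted p = 0.00547). With the 3' minus 5' signal as a covariate this difference was -0.73 with an SE of 0.37 and did not pass (adjusted p = 0.196). From ZT18 to ZT0 it rose 2.83-fold (log2 difference 1.50, SE 0.19, adjusted p = 1.20e-04), a call kept with the covariate (1.47, SE 0.34, adjusted p = 0.0178).

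Over longer spans, BZIP17 was 1.67-fold lower at ZT12 than at ZT0 (log2 difference -0.74, SE 0.19, adjusted p = 0.00543). ZT18 and ZT6 differed by -0.13 with a 95% interval of -0.55 to 0.28 (adjusted p = 0.608). In order of level, ZT0 stood above ZT12, and ZT12 above ZT18, each by a difference that passed, while ZT6 was told apart from ZT0 only. Leaving out any 1 of the 12 arrays ended none of the 4 calls between times, whose log2 differences kept their directions.

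BZIP60, the factor whose mRNA IRE1 splices, was also highest at dawn, by much less. Its arrays read 8.96, 8.91 and 9.22 at ZT0, and 8.55, 8.60 and 8.58 at ZT6. They read 8.86, 8.73 and 8.68 at ZT12, and 8.53, 8.84 and 8.49 at ZT18. Every ZT0 array again lay above every other array, by a small margin over ZT12 replicate 1 and ZT18 replicate 2, and the ZT18 arrays overlapped those of ZT6 and ZT12.

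BZIP60 RNA fell 1.37-fold from 9.03 ± 0.17 at ZT0 to 8.58 ± 0.02 at ZT6 (log2 difference -0.45, SE 0.13, adjusted p = 0.0087 by limma). It rose 1.33-fold from 8.62 ± 0.19 at ZT18 to ZT0 (log2 difference 0.41, SE 0.13, adjusted p = 0.0233). That rise did not pass with the covariate (0.51, SE 0.22, adjusted p = 0.139), in a limma fit to the 6 arrays of these times (adjusted p = 0.0955), or without ZT0 replicate 3, ZT18 replicate 1 or ZT18 replicate 3 (adjusted p up to 0.0788). The level of 8.76 ± 0.09 at ZT12 was not told apart from ZT6 (0.18, 95% interval -0.09 to 0.45, adjusted p = 0.462), from ZT18 (adjusted p = 0.39) or from ZT0 (-0.27, SE 0.13, adjusted p = 0.0882). The difference between ZT18 and ZT6 was 0.04 (95% interval -0.23 to 0.32). The F-test over the 4 times (adjusted p = 0.0239) was lost without ZT0 replicate 3, the array with the highest value (adjusted p = 0.0977).

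BZIP28, which like BZIP17 sits in the ER membrane, showed no difference that passed. Its arrays read 6.74, 6.52 and 6.71 at ZT0, and 6.53, 6.39 and 6.37 at ZT6. They read 6.42, 6.45 and 6.33 at ZT12, and 6.52, 6.69 and 6.73 at ZT18. The ZT12 arrays lay below all ZT0 and ZT18 arrays, and the other pairs of times overlapped.

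The means of BZIP28 were 6.66 ± 0.12 at ZT0 and 6.43 ± 0.09 at ZT6, then 6.40 ± 0.06 at ZT12 and 6.65 ± 0.11 at ZT18 (F-test adjusted p = 0.161 by limma). ZT12 differed from ZT0 by -0.25 (95% interval -0.53 to 0.02, adjusted p = 0.113) and ZT18 differed from ZT12 by 0.25 (95% interval -0.03 to 0.52, adjusted p = 0.13). ZT0 and ZT18 differed by 0.01 (95% interval -0.27 to 0.29). The intervals with ZT12 allow changes of a size called for BZIP60, so they do not show that BZIP28 was constant. In this fit the interval between ZT0 and ZT18 does not reach the 0.41 called for BZIP60 between those times. With the 3' minus 5' signal as a covariate, the BZIP28 difference was 0.05 with an SE of 0.22. That SE allows a change of 0.41, and the BZIP60 call was itself lost in that fit. BZIP28 was also a quiet probe set, with a within-time SD of 0.10 where the median of all probe sets was 0.19.

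**Figure D2:**
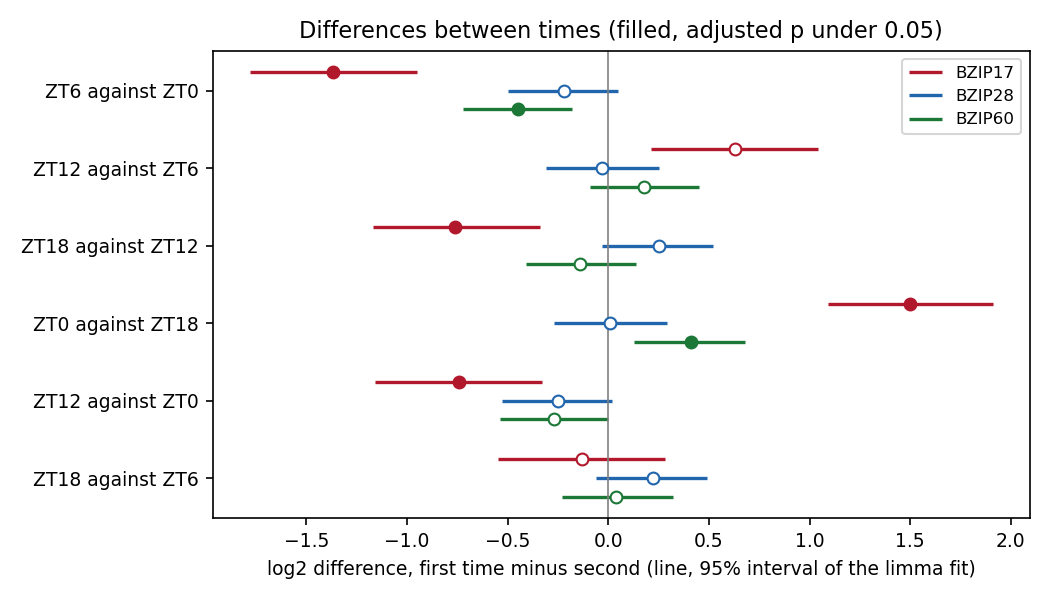
Log2 differences between times (first time minus second) for the 3 bZIP genes from the limma fit, with 95% intervals as lines; filled points had an adjusted p under 0.05. BZIP17 has 4 filled points, from -1.37 to 1.50, BZIP60 has filled points at -0.45 and 0.41, and BZIP28 has none.

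Read against all probe sets, the counts of called bZIP genes were as follows. Between ZT0 and ZT6, 2 of 3 passed, both lower at ZT6, where 56.0% of probe sets passed in either direction and 28.4% were lower at ZT6. The arrays of these times did not overlap for the same 2 genes, against 65.8% of probe sets. Between ZT6 and ZT12, 0 of 3 passed by limma, against 2.12% of probe sets, and arrays did not overlap for 2 of 3, against 32.8%. An unadjusted limma p under 0.05 was seen there for 1 of 3, and the share of all probe sets at that threshold was not counted. Between ZT12 and ZT18, 1 of 3 passed, lower at ZT18, against 50.5% in either direction and 24.4% lower at ZT18. Arrays there did not overlap for 2 of 3, against 56.8%. Between ZT18 and ZT0, 2 of 3 passed, both higher at ZT0, against 37.0% in either direction and 18.6% higher at ZT0, and arrays did not overlap for 2 of 3, against 43.7%. For ZT12 against ZT0, 1 of 3 passed, against 54.0%, and arrays did not overlap for 3 of 3, against 61.0%. For ZT18 against ZT6, 0 of 3 passed by limma, against 46.2%, and arrays did not overlap for 0 of 3, against 57.0%. An unadjusted limma p under 0.05 was seen there for 0 of 3, again with no count of the share of all probe sets at that threshold.

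The 3 genes differed from each other in time course. The test took the log2 difference between 2 genes on the same array, which cancels shifts of a whole array, and asked whether it varied over the 4 times. An exact permutation test over all 369600 assignments of the arrays to times was used for the 3 pairs, with p-values adjusted over the 3. For BZIP17 minus BZIP28 the difference was 1.2 ± 0.43 at ZT0 and 0.06 ± 0.06 at ZT6, then 0.72 ± 0.12 at ZT12 and -0.29 ± 0.06 at ZT18. This pair varied with time (exact permutation p = 0.00013, adjusted p = 0.00039). All ZT0 and ZT12 arrays lay above all ZT6 and ZT18 arrays in this difference.

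For BZIP17 minus BZIP60 the difference was -1.17 ± 0.57 at ZT0 and -2.09 ± 0.15 at ZT6, then -1.64 ± 0.05 at ZT12 and -2.26 ± 0.14 at ZT18, and it too varied (exact permutation p = 0.00357, adjusted p = 0.00536). Both genes were highest at ZT0, then at ZT12, and the test concerns how far they moved. In both pairs with BZIP17 the ZT0 arrays scattered most, whereas the permutation treats the spread as equal at all times. For BZIP28 minus BZIP60 the difference was -2.37 ± 0.14 at ZT0 and -2.15 ± 0.11 at ZT6, then -2.36 ± 0.08 at ZT12 and -1.97 ± 0.20 at ZT18 (exact permutation p = 0.0194, adjusted p = 0.0194). ZT18, the time with the higher 3' minus 5' signal, had the highest mean here and the lowest mean in both pairs with BZIP17. The pair tests were not run with that signal as a covariate, so its part in them was not tested. The smallest p that the design allows is 6.49e-05. All 3 pairs kept their calls when any 1 array was left out (adjusted p up to 0.0477). Across the 12 arrays, Pearson's r was 0.75 for BZIP17 with BZIP60, 0.40 for BZIP28 with BZIP60 and 0.26 for BZIP17 with BZIP28, values that rest on the same arrays at 4 times.

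Genes of the response around these factors did not share a single pattern. Of 66 listed genes for the sensors, processing enzymes, chaperones, degradation and secretion steps, 16 had a named probe set and 13 could be tested. The genes for the IRE1 kinases, the BiP chaperones and the other members of the list are not analysed here. The probe sets of the site-2 protease gene, DER2.2 and SEC31A lay under the detection limit of 4 at every time and were not tested. A second, dimmer probe set of DER1 was at the floor of 2.06 at every time, and the brighter one was used. By the F-test 11 of the 13 passed, against 70.1% of all probe sets, with a median range of 0.54, beside 0.73 over all probe sets. CNX2 lost this call without ZT18 replicate 1, ERDJ2B without ZT6 replicate 3, DER1 without ZT6 replicate 2 or ZT18 replicate 2, and SEC61G without ZT0 replicate 1, ZT0 replicate 2 or ZT6 replicate 3 (adjusted p up to 0.144). With the 3' minus 5' covariate CNX2 (range 0.55, adjusted p = 0.286) and DER1 (range 0.19 in place of 0.48, adjusted p = 0.713) did not pass.

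S1P, the protease that cuts BZIP17 and BZIP28, had the widest swing of the 13. Its arrays read 7.54, 7.10 and 7.71 at ZT0, and 6.48, 6.59 and 6.61 at ZT6. They read 6.32, 6.33 and 6.22 at ZT12, and 7.23, 7.32 and 7.43 at ZT18. All ZT0 and ZT18 arrays lay above all ZT6 and ZT12 arrays. S1P fell 1.85-fold from ZT0 to ZT6 (log2 difference -0.89, SE 0.15, adjusted p = 3.29e-04 by limma) and rose 2.05-fold from ZT12 to ZT18 (1.04, SE 0.15, adjusted p = 1.39e-04). Both calls were kept with the covariate and without any 1 array. ZT0 and ZT18 did not differ by the test (0.12).

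Among 6 testable genes of protein folding, CRT1B (a calreticulin), ERDJ3B and ERDJ2B (J-domain co-chaperones of the ER) rose from ZT0 to ZT6, and PDIL5-1 (a protein disulfide isomerase-like gene) and ERDJ2A (a J-domain protein) fell. ERDJ3B rose from 8.62 ± 0.26 to 9.49 ± 0.24, ERDJ2B from 7.06 ± 0.14 to 7.59 ± 0.09, and CRT1B from 12.21 ± 0.07 to 12.46 ± 0.08. ERDJ2A fell from 12.09 ± 0.34 to 11.44 ± 0.17, and PDIL5-1 from 8.51 ± 0.07 to 8.15 with an SD under 0.01. The related genes ERDJ2A and ERDJ2B thus moved in opposite directions over these 6 h (log2 differences -0.65 and 0.53, SE 0.16 and 0.13). The call of CRT1B was lost without ZT0 replicate 1, ZT0 replicate 2, ZT6 replicate 1 or ZT6 replicate 3 (adjusted p up to 0.0786).

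Of 6 testable genes of degradation and secretion, none rose and 3 fell from ZT0 to ZT6. DER2.1, a derlin of ER-associated degradation, fell from 10.69 ± 0.03 to 10.26 ± 0.06. UBC32, a ubiquitin-conjugating enzyme of the same process, fell from 10.10 ± 0.16 to 9.65 ± 0.07, a call lost without ZT0 replicate 1 or ZT6 replicate 2 (adjusted p up to 0.0779). SEC61G, a subunit of the translocon through which proteins enter the ER, fell from 9.26 ± 0.23 to 8.70 ± 0.13. Its dimmer second probe set read 8.56 ± 0.09 and 8.25 ± 0.16 and was highest at ZT18, at 8.68 ± 0.27, where the brighter one was highest at ZT0. OS9, a lectin of degradation, and SEC61A, the pore subunit, did not pass in any comparison. Altogether 3 of 13 rose and 6 fell from ZT0 to ZT6, with a median log2 difference of -0.36, where all probe sets had -0.01 and 27.6% of them rose and 28.4% fell.

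At the other steps, 0 of the 13 passed between ZT6 and ZT12 by limma, against 2.12% of all probe sets. An unadjusted limma p under 0.05 was seen there for 4 of 13, and the share of all probe sets at that threshold was not counted. From ZT12 to ZT18, S1P, ERDJ2A (11.51 ± 0.13 to 12.19 ± 0.16) and UBC32 (9.33 ± 0.17 to 9.73 ± 0.28) rose. CNX2, a calnexin (7.90 ± 0.24 to 7.36 ± 0.16), CRT1B (12.25 ± 0.04 to 11.94 ± 0.13) and DER1, a derlin (8.24 ± 0.18 to 7.76 ± 0.23), fell, 3 of 13 in each direction where 26.1% of all probe sets rose and 24.4% fell. Of these 6 calls only that of S1P was kept with the 3' minus 5' covariate, where the others had adjusted p-values of 0.074 to 0.744. The log2 differences with the covariate were -0.55 for CNX2 (-0.54 without it), -0.30 for CRT1B (-0.31), 0.83 for ERDJ2A (0.68) and 0.69 for UBC32 (0.40), and that of DER1 was -0.14 (-0.48). CRT1B was also lost under quantile normalization (adjusted p = 0.0644). UBC32 was also lost with no filter, median centring or a fit to the arrays of those times (adjusted p up to 0.0908), and without ZT12 replicate 1, ZT12 replicate 3, ZT18 replicate 1 or ZT18 replicate 2 (adjusted p up to 0.143), and DER1 without ZT12 replicate 1 or ZT18 replicate 2 (adjusted p up to 0.0683). From ZT18 to ZT0, 4 of 13 rose (CNX2, CRT1B, PDIL5-1 and DER2.1) and none fell, where 18.6% of all probe sets rose and 18.5% fell, and all 4 calls were lost with the covariate (adjusted p of 0.118 to 0.286). The log2 differences with it were 0.44 for CNX2 (0.43 without it), 0.26 for CRT1B (0.27) and 0.44 for PDIL5-1 (0.41), and that of DER2.1 was 0.28 (0.48). In a fit to the 6 arrays of these times CNX2, CRT1B and PDIL5-1 did not pass (adjusted p up to 0.0986). CNX2 was also lost without any 1 of the ZT0 arrays, ZT18 replicate 1 or ZT18 replicate 2 (adjusted p up to 0.0998), and CRT1B without ZT0 replicate 3, ZT18 replicate 1 or ZT18 replicate 2 (adjusted p up to 0.0836).

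Over the longer spans, ERDJ3B rose from ZT0 to ZT12 (log2 difference 0.66, SE 0.18), and S1P, PDIL5-1, ERDJ2A, DER2.1 and UBC32 fell, by -1.16 to -0.48. That was 1 of 13 up and 5 down, where 25.6% of all probe sets rose and 28.4% fell. S1P and ERDJ2A were higher at ZT18 than at ZT6 (0.77 and 0.75), and CNX2, CRT1B, ERDJ2B and DER1 were lower, by -0.53 to -0.43. That was 2 of 13 up and 4 down, where 22.8% of all probe sets rose and 23.4% fell. The ZT18 calls of CNX2, ERDJ2B and DER1 were lost with the covariate (adjusted p of 0.137 to 0.568). CNX2 had a log2 difference of -0.54 with it (-0.53 without), ERDJ2B -0.28 (-0.43) and DER1 -0.19 (-0.48). ERDJ2B was also lost without ZT6 replicate 3, and DER1 without ZT6 replicate 2 or ZT18 replicate 2 (adjusted p up to 0.0746).

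**Figure D3:**
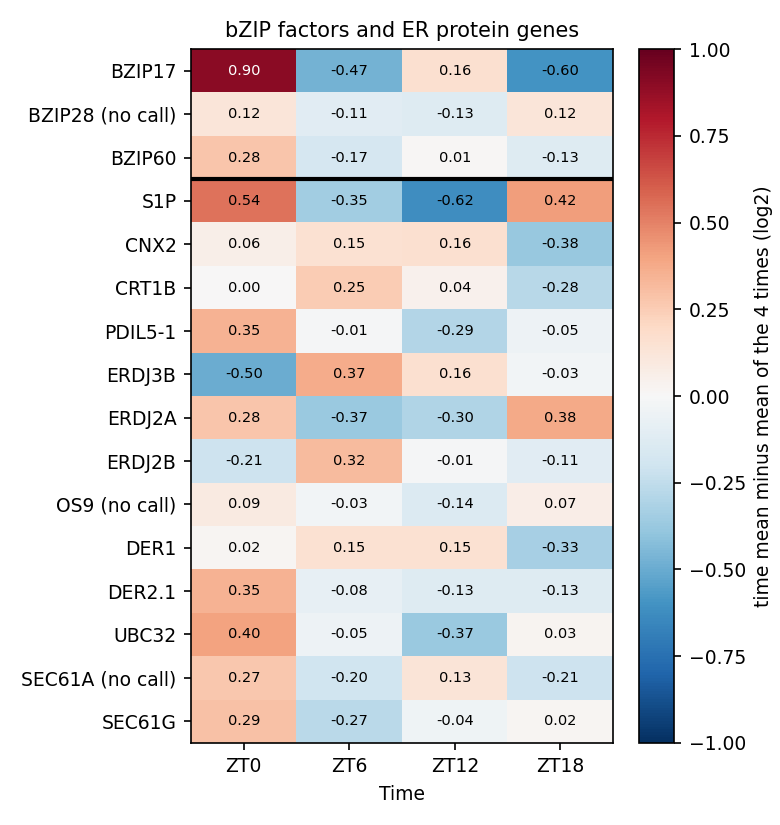
Mean log2 expression at each time minus the mean of the 4 times, for the 3 bZIP genes (above the line) and 13 genes of ER protein handling; red is above and blue below the gene's own mean, and genes marked "no call" did not pass the F-test. BZIP17 runs from 0.90 at ZT0 to -0.60 at ZT18, S1P and ERDJ2A are above their means at ZT0 and ZT18, and ERDJ3B is lowest at ZT0 (-0.50).

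The genes most like each factor over the 12 arrays were taken from 7571 genes by Pearson's r, as a description. For BZIP28 the highest was ERDJ2A (r = 0.901, between 0.88 and 0.96 with 1 array left out), then S1P (r = 0.891, between 0.869 and 0.919), AT3G51050 (0.89), AT2G17990 (0.886) and AT3G05080 (0.881). ERDJ2A and S1P were on the list of ER genes drawn up for this work with earlier results of these data known. Once each time's mean was removed, r with BZIP28 was 0.70 for ERDJ2A and 0.64 for S1P. All 3 genes had higher means at ZT0 and ZT18 than at ZT6 and ZT12. S1P and ERDJ2A passed the F-test with ranges of 1.16 and 0.75, and BZIP28 did not, with 0.25.

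**Figure D4:**
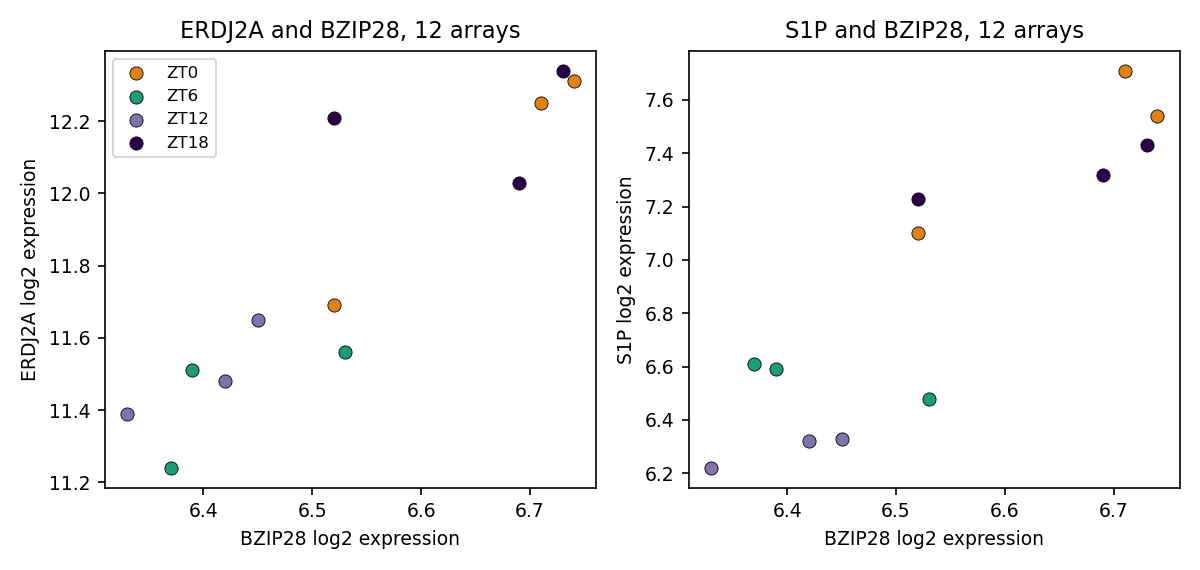
Log2 expression of ERDJ2A (left) and S1P (right) against that of BZIP28 on the 12 arrays, coloured by time. The ZT6 and ZT12 arrays lie mostly at the lower left and the ZT0 and ZT18 arrays mostly at the upper right. Along the BZIP28 axis, ZT6 replicate 1 (6.53) lies beyond ZT0 replicate 2 and ZT18 replicate 1 (6.52 each). Over all arrays, r = 0.901 for ERDJ2A and r = 0.891 for S1P.

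For BZIP17 the most alike genes were AT2G23090 (r = 0.958), AT4G29870 (0.958), AT1G15250 (0.954), AT1G30250 (0.953) and AT4G22190 (0.949), and 62 genes had r above 0.9. All 5 were highest at ZT0, next at ZT12 and lowest at ZT18, as BZIP17 was. AT1G30250 moved furthest, from 7.05 ± 0.45 at ZT0 to 4.95 ± 0.27 at ZT6, then 5.6 ± 0.46 at ZT12 and 4.36 ± 0.40 at ZT18. For BZIP60 they were AT4G32750 (r = 0.915), AT4G23440 (0.89), AT3G13940 (0.881), AT3G06530 (0.879) and AT2G31240 (0.867), and 1 gene was above 0.9. Removing the time means left r at 0.61 to 0.92 for the 5 genes of BZIP17 and 0.50 to 0.78 for those of BZIP60.

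With the 13 ER genes, r ranged from -0.67 (ERDJ3B) to 0.81 (SEC61A) for BZIP17, from -0.52 (ERDJ2B) to 0.90 (ERDJ2A) for BZIP28, and from -0.51 (ERDJ3B) to 0.64 (DER2.1) for BZIP60. ERDJ3B and ERDJ2B had negative r with all 3 factors, and PDIL5-1, DER2.1, UBC32, S1P, ERDJ2A, OS9, SEC61A and SEC61G had positive r with all 3. Of 11 other bZIP genes with a numbered symbol, 5 could be tested. Between ZT0 and ZT6, 3 of these 5 passed, where 56.0% of all probe sets did. BZIP53 and BZIP61 fell (log2 differences -0.58 and -1.16), BZIP24 rose (from 5.14 ± 0.19 to 7.31 ± 0.22), and BZIP19 and BZIP34 did not pass there. BZIP17 and BZIP60 fell over these hours too. Like them, BZIP53 and BZIP61 had their highest means at ZT0 (12.53 and 10.18). Unlike them, BZIP53 and BZIP61 were higher at ZT18 than at ZT6 by a difference that passed (0.42 and 1.06). BZIP24 was lower at ZT18 than at ZT6 (-0.97). That was 2 of 5 up and 1 down, where 22.8% of all probe sets rose and 23.4% fell. The part of the higher 3' minus 5' signal at ZT18 in these differences was not tested. Calls of these other genes were not followed under alternative settings or with arrays left out.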

How the data were processed

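The deposited table holds log2 expression values per probe set, 1 column per array, with no pooling. Per the submitters' processing notes, the tools were GCRMA, R 3.1 and affy 1.42.3; which did what is not given in the sources used here. The deposited log2 values share a floor of 2.06, where 26.7% to 28.1% of each array's values lay. The number of arrays limits the precision.

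Times came from the sample titles. A second label for the harvest time differed on 9 of 12 arrays and was used as an alternative grouping. The labels do not say that replicates were grown separately, so p-values measure the spread between arrays, which may be technical. No array copied another: 73 to 190 of 14016 values were exactly equal within a pair.

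After 64 chip controls were removed, tests covered the 14016 of 22746 probe sets with a value of at least 4 on 3 or more arrays. Of 13513 probe sets with 1 gene name (503 had several), 13436 matched the RefSeq table of TAIR10.1 by Entrez identifier. Each gene was represented by its brightest probe set. The files name no genome build, so no coordinates are given. Promoters and proteins were not analysed here. The annotation table used here pairs no probe set with CCA1 alone, and its level was not analysed here.

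limma 3.58.1 in R 4.3.3 (lmFit, eBayes with a variance trend) gave the F-test and 6 two-sided comparisons, and was tested on simulated data. Named genes were the 3 factors, list genes with a probe set, and the 5 genes most correlated with each factor. Members and lists were chosen with earlier results of these data known. The other bZIP genes were added by symbol after the data were seen.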

Additional observations from a re-analysis of the deposited data

How the results depend on the processing

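The calls and directions of BZIP17, BZIP28 and BZIP60 in all 6 comparisons and the F-test were the same with no filter, a mean of at least 6, median centring, quantile normalization, no variance trend, a robust trend and the replicate number as a block. The replicate block moved the count for ZT12 against ZT6 from 297 to 815. The replicate numbers are not shown to pair the arrays: r between deviations of same-numbered arrays ran from -0.15 to 0.40, with 9 of 18 above 0.1, though 11 of 12 arrays correlated best with their own number. That count was 145 with no filter and 752 in a fit to its own 6 arrays, where BZIP17 passed (0.63), while in the same kind of fit BZIP60 for ZT0 against ZT18 did not (0.41). The 3' minus 5' covariate gave 2575 calls for ZT18 against ZT12, 1964 for ZT0 against ZT18 and 3466 for ZT18 against ZT6. With it, BZIP17 for ZT18 against ZT12 (-0.73) and BZIP60 for ZT0 against ZT18 (0.51) no longer passed, and the uncalled BZIP60 difference for ZT18 against ZT6 became -0.05.

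With 1 array left out, the count for ZT12 against ZT6 ran from 27 (without ZT6 replicate 2) to 466 (without ZT18 replicate 1). It moved by over 1.5 times when ZT0 replicate 3, ZT18 replicate 1 or any array of ZT6 or ZT12 was left out. BZIP17 ran from 0.56 to 0.69 there, and BZIP28 from -0.06 to 0.02. BZIP28 ran from -0.05 to 0.08 and BZIP60 from 0.31 to 0.52 for ZT0 against ZT18, BZIP60 ran from -0.07 to 0.11 for ZT18 against ZT6, and its range over the day from 0.35 to 0.52. Of 42 calls of the 13 ER genes, 24 were kept under every alternative run, 14 were lost with the covariate, 12 were lost without some array and 0 were reversed. Grouping by the second harvest label was not run for those genes.

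Under that second label limma made 0 calls in each of the 6 comparisons and the F-test, with 16 to 279 probe sets at an unadjusted p under 0.05. For BZIP17 the differences were -0.15 (ZT6 against ZT0), -0.23 (ZT12 against ZT6), 0.79 (ZT18 against ZT12), -0.41 (ZT0 against ZT18), -0.38 (ZT12 against ZT0) and 0.57 (ZT18 against ZT6), with a range of 0.79. For BZIP60 they were, in the same order, -0.25, -0.1, 0.21, 0.14, -0.35 and 0.11, with a range of 0.35. For BZIP28 they were -0.14, 0, 0.09, 0.05, -0.14 and 0.08, with a range of 0.14. The F statistics of the pairs were 0.588 for BZIP17 and BZIP28, 0.801 for BZIP17 and BZIP60, and 0.424 for BZIP28 and BZIP60.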
